A study of Mus musculus with 2 samples.

Results

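The 8 genes described here encode the enzymes that set the phosphorylation of eIF2alpha and their partners: the kinases *Eif2ak1*, *Eif2ak2*, *Eif2ak3* and *Eif2ak4*, the GCN2 partners *Gcn1l1* and *Impact*, and the phosphatase subunits *Ppp1r15a* and *Ppp1r15b*. They were chosen by gene symbol, and all 8 were found among the 23183 genes of the deposited tables. mRNA of mouse lung cancer cells was sequenced as 1 library of KPR- cells and 1 library of KPRrestored cells. Both come from immortalized cells grown out of lung tumors of mice with the alleles *Runx3* flox/FSF, *K-Ras* LSL-G12D/+ and *p53* flox/flox, a Tomato reporter and FlpERT2, in which adenoviral Cre under a CMV promoter switched on *K-Ras* and deleted *p53* and the floxed *Runx3* allele. KPR- cells carry the other *Runx3* allele blocked by a Frt-Stop-Frt cassette (genotype RUNX3 -/-), and in KPRrestored cells 4-hydroxytamoxifen (4-OHT) activates the Flp recombinase that removes the cassette (RUNX3 -/+). The sample titles give 0 h for KPR- and 16 h for KPRrestored, and the records list 1 μM 4-OHT for both. How many cell lines or clones the RNA came from is not given in the sources used here.

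eIF2 brings the initiator tRNA to the ribosome, and its exchange factor eIF2B recharges it with GTP. Phosphorylation of the alpha subunit blocks this exchange, which lowers general translation while mRNAs with suitable upstream open reading frames, such as that of the transcription factor ATF4, are translated more. Each kinase answers to a different signal, and a phosphatase made of a PP1 catalytic subunit and a Ppp1r15 subunit removes the phosphate. mRNA levels show neither the activity of these enzymes nor the phosphorylation of eIF2alpha, which were not measured in these data.

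The estimated depth was 21.7 M fragments for KPR- and 22.4 M for KPRrestored, taken from the spacing of low FPKM values (fragment numbers divided by transcript length and library size). With 1 library per group there is no replicate check, and no test of the conditions was possible. Differences are given as log2(FPKM + 0.005) in KPRrestored minus KPR-, and a difference of 0.5 or more either way is called. The 95% intervals (exact Clopper-Pearson limits on estimated fragments) cover counting error only. *Runx3* itself had 0.348 and 0.349 FPKM, so the value per gene does not check the labels, and each direction below is that of the library labelled KPRrestored against the library labelled KPR-. The epithelial markers *Epcam*, *Krt8*, *Krt18*, *Krt19* and *Cdh1* summed to 4881 FPKM in KPR- and 4625 FPKM in KPRrestored, whereas all 5 alveolar type 2 markers, *Nkx2-1*, *Sftpc*, *Sftpb*, *Sftpa1* and *Lamp3*, were under 1 FPKM and 4 of them were listed at 0 in both libraries. Of 6 fibroblast markers only *Col1a1* passed a mean of 1 FPKM (12.2 and 4.21 FPKM, of sums over the list of 12.7 and 5.33), with *Lum* at 0. Below that mean, *Dcn* (0.173 and 0.742 FPKM) and *Pdgfra* (0.273 and 0.363 FPKM) were higher in KPRrestored. *Col1a2* (0.0463 and 0.0180 FPKM) and *Col3a1* (0.0171 and 0 FPKM) were lower, so the list had both signs. Of 5 leukocyte markers only *Cd68* did (3.08 and 6.78 FPKM, of 3.08 and 6.83), with *Adgre1* and *Cd3e* at 0 and *Ptprc* at 0 and 0.00892 FPKM. Of 4 endothelial markers only *Kdr* did (1.10 and 2.05 FPKM, of 1.16 and 2.22), with *Tek* at 0. *Cdh5* (0 and 0.141 FPKM) was higher in KPRrestored and *Pecam1* (0.0601 and 0.0292 FPKM) lower, both below a mean of 1 FPKM. The part of such cells in the differences was not tested. The 16 h in culture, 4-OHT and the restored *Runx3* allele cannot be told apart in this design.

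Transcripts of the inducible phosphatase subunit *Ppp1r15a* were 3.68-fold higher in KPRrestored, and those of the GCN1-binding protein *Impact* were 1.48-fold higher. The other 6 genes differed by less than the threshold. Among these, *Eif2ak3* and *Ppp1r15b* had positive differences and *Eif2ak1*, *Eif2ak2*, *Eif2ak4* and *Gcn1l1* had negative ones of a similar size, between -0.25 and -0.21. The mean FPKM of all 8 genes was 1 or more, so none was lost to the filter on low values. In all, 2 of 8 were called higher, where 12.1% of the 11231 genes that passed the filter were, and 0 of 8 were called lower, where 9.29% were. With 8 genes, these counts do not set the group apart from the rest. The median difference of the 8 genes was 0.028 and that of all 11231 genes 0.0086.

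**Figure D1:**
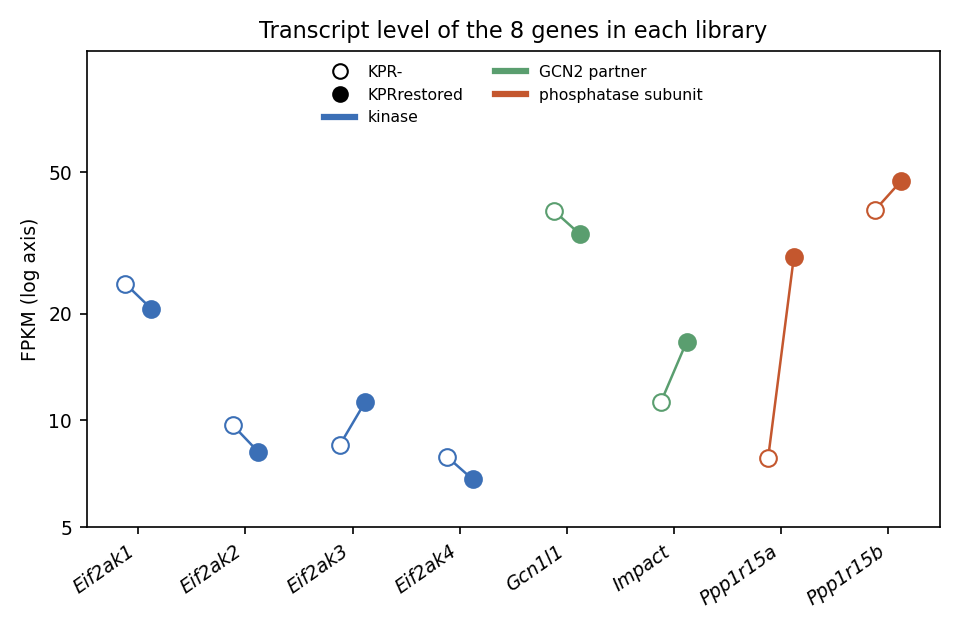
FPKM (log axis) of each of the 8 genes in the KPR- library (open circles) and the KPRrestored library (filled circles), 1 library each, colored by role. *Ppp1r15a* is the lowest of the 8 in KPR-, at 7.85 FPKM, and comes after *Ppp1r15b* and *Gcn1l1* in KPRrestored, at 28.9 FPKM.

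In KPR-, the levels per length ran from 39.2 FPKM for *Ppp1r15b* and 39.0 FPKM for *Gcn1l1* through 24.3 FPKM for *Eif2ak1* and 11.3 FPKM for *Impact* to 9.72, 8.52, 7.92 and 7.85 FPKM for *Eif2ak2*, *Eif2ak3*, *Eif2ak4* and *Ppp1r15a*. The last 4 lie close together, and with 1 library their order was not tested. In KPRrestored, *Ppp1r15b* and *Gcn1l1* again had the highest levels, *Ppp1r15a* came next, and *Eif2ak3* stood above *Eif2ak2*, the reverse of their order in KPR-.

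*Ppp1r15a* encodes GADD34, the stress-inducible subunit that directs PP1 to eIF2alpha. It lies on chromosome 7 of GRCm38 from 45522917 to 45526268 (minus strand). Its level was 7.85 FPKM in KPR- and 28.9 FPKM in KPRrestored. About 362 and 1373 fragments stood behind these values, and the log2 difference was 1.88 with a counting interval of 1.71 to 2.05. Of the 11231 genes, 0.588% had a larger difference. The 1167 genes with a transcript within 10% of its length had a median difference of 0.052, and 14.7% of them were called higher.

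The bases before its start site are shown because this gene had the largest difference of the 8. RefSeq (GRCm38.p6) promoter windows, from 250 bases before to 50 bases after a start, were found for 6 of the 8 genes (7 windows) and not for *Ppp1r15b* and *Impact*. They were searched on both strands for the RUNX core letters TGTGGT and TGCGGT, the C/EBP-ATF element TGATGNAA, the cAMP response element (CRE) TGACGTCA and the interferon element GAAANNGAA. The *Ppp1r15a* window held 3 matches. GAAAGGGAA lay 220 to 212 bases before the start, TGCGGT 110 to 105 bases before it, and the full palindromic CRE, a site bound by ATF and CREB family factors, 12 to 5 bases before it. Of all 32851 windows, 8.56% held an interferon element, 6.45% TGCGGT and 1.79% the CRE. In the sequence of chr7:45526269-45526518 on the minus strand, written 5′ to 3′, capitals mark these matches.
Ppp1r15a: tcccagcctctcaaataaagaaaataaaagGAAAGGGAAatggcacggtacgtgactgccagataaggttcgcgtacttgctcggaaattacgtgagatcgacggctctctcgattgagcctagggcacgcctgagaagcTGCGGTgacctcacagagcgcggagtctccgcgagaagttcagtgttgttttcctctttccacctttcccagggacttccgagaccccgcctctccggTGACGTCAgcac

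*Ppp1r15b* encodes CReP, the subunit that keeps a basal eIF2alpha phosphatase active in unstressed cells. The gene spans 133131166 to 133139800 of chromosome 1 (plus strand). Its level was 39.2 FPKM in KPR- and 47.2 FPKM in KPRrestored. From about 4581 and 5690 fragments, the log2 difference was 0.27, which did not reach the threshold, and its counting interval ran from 0.21 to 0.32. The 847 genes of like transcript length had a median difference of -0.094, with an upper quartile of 0.13.

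Per length, *Ppp1r15b* transcripts were 4.99 times as many as *Ppp1r15a* transcripts in KPR- and 1.63 times as many in KPRrestored. The log2 ratio of *Ppp1r15a* to *Ppp1r15b* thus changed by 1.61. The FPKM of both subunits summed to 47.1 in KPR- and 76.1 in KPRrestored, and *Ppp1r15a* made up 72.5% of the gain. Its share of the sum was 16.7% in KPR- and 38.0% in KPRrestored, so *Ppp1r15b* remained the more abundant transcript in both libraries.

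*Eif2ak3* encodes PERK, the kinase of the ER membrane that is activated by unfolded proteins in the ER lumen. On chromosome 6 it extends from 70844484 to 70905241 (plus strand). It was the only kinase with a positive difference, from 8.52 FPKM in KPR- to 11.3 FPKM in KPRrestored. The log2 difference was 0.41, under the threshold, with a counting interval of 0.27 to 0.54 from about 796 and 1089 fragments. If its shortest coding transcript (927 bases) was used instead, the fragments were about 133 and 182 and the interval was 0.077 to 0.74. Genes of like transcript length had a median difference of -0.034 and an upper quartile of 0.21.

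Its promoter window held none of the letters above, which says only that they are not in this window. It is shown for its CCAAT letters, the core of the CCAAT box bound by NF-Y, which were looked for after the sequence had been seen. There were 6 matches over both strands in the 250 bases before the start used for this window, and 19 of 32851 windows, or 0.058%, held at least as many. The gene start given above, 70844484, lies inside this window, upstream of the start site used for it. The last match falls after 70844484. The other member windows held 0 or 1. In chr6:70844265-70844514 on the plus strand, capitals mark CCAAT and its complement ATTGG.
Eif2ak3: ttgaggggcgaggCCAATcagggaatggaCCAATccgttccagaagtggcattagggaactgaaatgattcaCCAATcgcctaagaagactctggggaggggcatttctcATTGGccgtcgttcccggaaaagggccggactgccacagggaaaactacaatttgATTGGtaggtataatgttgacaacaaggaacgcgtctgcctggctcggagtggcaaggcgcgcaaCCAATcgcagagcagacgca

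*Eif2ak1* encodes HRI, which senses a lack of heme and, through DELE1, mitochondrial stress. The gene occupies 143817792 to 143902717 of chromosome 5 (plus strand). It had the highest level of the kinases, 24.3 FPKM in KPR- and 20.7 FPKM in KPRrestored. The log2 difference was -0.23 with a counting interval of -0.32 to -0.14. Its exons share 487 bases with those of *Aimp2* on the other strand, which had 70.2 and 81.3 FPKM, and whether strand was used in the counting is not given in the sources used here. The exons of *Ppp1r15b* and *Eif2ak3* likewise share 640 and 485 bases with *Gm26616* and *Gm43292* on the other strand, which were not analysed here.

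*Eif2ak2* encodes PKR, which binds double-stranded RNA and is itself an interferon-inducible gene. The gene spans 78850504 to 78882572 of chromosome 17 (minus strand). Its level was 9.72 FPKM in KPR- and 8.16 FPKM in KPRrestored. The log2 difference was -0.25, with a counting interval of -0.40 to -0.11 from about 865 and 749 fragments. Its window held the overlapping interferon elements GAAAACGAA and GAAACAGAA, which lay 18 to 26 and 24 to 32 bases after the start. Of 11 interferon-inducible genes listed beside it, 4 passed the filter. *Oasl1* was called higher, at 10.4 and 20.6 FPKM, and *Ddx58*, which encodes the RNA sensor RIG-I, had a difference of -0.17.

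*Eif2ak4* encodes GCN2, which is activated by uncharged tRNA and stalled ribosomes. Placed on chromosome 2 at 118388583 to 118475234 (plus strand), it had the lowest level of the kinases, 7.92 FPKM in KPR- and 6.83 FPKM in KPRrestored. The log2 difference was -0.21 with a counting interval of -0.35 to -0.070 from about 859 and 765 fragments.

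The FPKM of the 4 kinases summed to 50.4 in KPR- and 47.0 in KPRrestored. *Eif2ak1* made up 48.1% of this sum in KPR- and 44.0% in KPRrestored. *Eif2ak3* made up 16.9% in KPR- and 24.1% in KPRrestored, passing *Eif2ak2*, which went from 19.3% to 17.4%. *Eif2ak4* kept the smallest share, 15.7% and 14.6%. These shares describe transcripts in 1 library each, and no test was possible.

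*Gcn1l1* (now *Gcn1*) encodes GCN1, the ribosome-bound protein through which GCN2 is activated. The gene spans 115565117 to 115622654 of chromosome 5 (plus strand). Its level was 39.0 FPKM in KPR- and 33.5 FPKM in KPRrestored. The log2 difference was -0.22 with a counting interval of -0.27 to -0.17 from about 7052 and 6263 fragments. Its transcript of 8555 bases is the longest of the 8, and the 327 genes of like length had a median difference of -0.19. Over all genes, differences declined with transcript length, from a median of 0.087 for 3059 genes under 2000 bases to -0.18 for 1375 genes of 6000 bases or more. The part of this trend in the difference of *Gcn1l1* was not tested.

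*Impact* encodes a protein that binds GCN1 in competition with GCN2 and so restrains GCN2, and in the mouse it is an imprinted gene expressed from the paternal allele. It lies on chromosome 18 from 12954690 to 12992950 (plus strand). Its level was 11.3 FPKM in KPR- and 16.7 FPKM in KPRrestored. From about 870 and 1327 fragments, the log2 difference was 0.56 with a counting interval of 0.44 to 0.69, which spans the threshold of 0.5. The 1349 genes of like transcript length had a median difference of -0.0029, and 12.8% of them were called higher. Of all 11231 genes, 9.83% had a larger difference.

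Transcripts of *Gcn1l1* and its partner kinase kept nearly the same ratio, with 4.92 *Gcn1l1* transcripts per *Eif2ak4* transcript in KPR- and 4.91 in KPRrestored. The difference of *Impact* had the opposite sign. Per *Eif2ak4* transcript there were 1.43 *Impact* transcripts in KPR- and 2.44 in KPRrestored, and per *Impact* transcript 3.45 and 2.01 *Gcn1l1* transcripts.

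**Figure D2:**
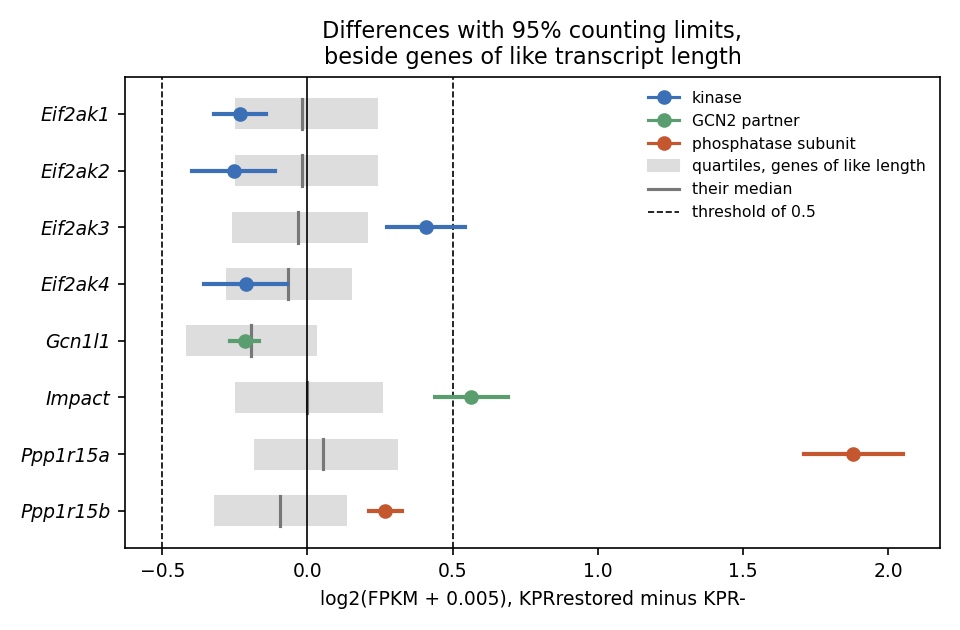
Points are the log2 differences of the 8 genes (KPRrestored minus KPR-), colored lines their 95% counting limits, and grey bars and ticks the quartiles and median of genes within 10% of the same transcript length. *Gcn1l1* lies near the median of genes of like length, while *Eif2ak3*, *Impact*, *Ppp1r15a* and *Ppp1r15b* lie above their upper quartiles. *Eif2ak2* lies just below its lower quartile (-0.252 against -0.249), and *Eif2ak1* and *Eif2ak4* lie between their lower quartiles and medians.

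The counting interval lay above 0 for 4 of the 8 genes and below 0 for the other 4. At this depth that is common, since 34.2% of genes had an interval above 0 and 33% one below 0, so an interval that excludes 0 does not set these genes apart. The plot of all genes shows the same, with 7 of the 8 differences between -0.25 and 0.56 and only that of *Ppp1r15a* in the upper tail.

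**Figure D3:**
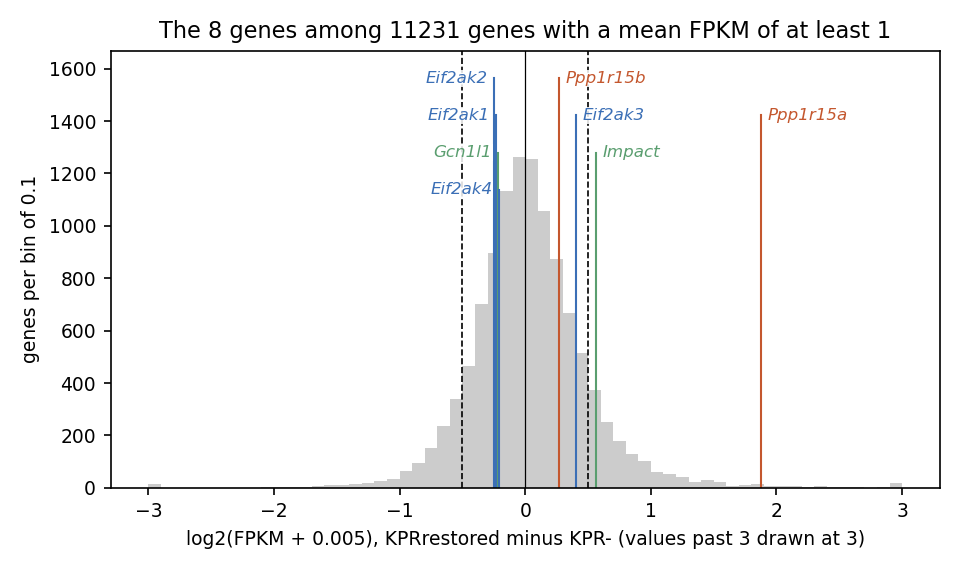
Histogram of the log2 differences of the 11231 genes whose mean FPKM was 1 or more, in bins of 0.1, with the 8 genes marked by colored lines and the threshold of 0.5 by dashed lines. The line of *Ppp1r15a* at 1.88 stands in the upper tail, and those of *Eif2ak1*, *Eif2ak2*, *Eif2ak4* and *Gcn1l1* lie together left of the center.

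The substrate and its exchange factor were described by short lists written from general knowledge. Of the eIF2 subunits, *Eif2s2*, which encodes eIF2beta, was called higher, at 122 FPKM in KPR- and 196 FPKM in KPRrestored (log2 difference 0.68). *Eif2s1*, which encodes the phosphorylated alpha subunit, had 62.1 and 64.6 FPKM, a difference of 0.056 whose counting interval of -0.0048 to 0.12 includes 0. *Eif2s3x*, which encodes eIF2gamma, had 169 and 128 FPKM (-0.40), so the differences of these subunits had both signs. Its Y-linked copy *Eif2s3y* did not pass the filter.

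None of the 5 eIF2B subunits was called. *Eif2b2*, *Eif2b3* and *Eif2b4* had differences of 0.45, 0.33 and 0.39, *Eif2b1* of 0.031 and *Eif2b5*, the catalytic subunit, of -0.20. The median of the 5 was 0.33, beside 0.0086 over all genes, and the counting interval of *Eif2b1*, -0.085 to 0.15, includes 0. None of the 3 PP1 catalytic subunits that pair with the Ppp1r15 proteins was called either. Over all genes 12.1% were called higher and 9.29% lower, so with 5 and 3 genes these counts do not set the lists apart. *Ppp1ca* had 372 and 382 FPKM, *Ppp1cb* 54.9 and 62.9 FPKM and *Ppp1cc* 122 and 110 FPKM.

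Of 12 genes that act on the kinases, 2 (16.7%) were called higher and 1 (8.33%) lower. Over all genes these shares were 12.1% and 9.29%, so the counts do not set the list apart, and its median difference was -0.13. *Dnajc3*, which encodes p58IPK, an ER co-chaperone known as an inhibitor of PKR and PERK, was lower, with 10.1 FPKM in KPRrestored and a log2 difference of -0.67. *Adar*, whose product edits double-stranded RNA, the ligand of PKR, was higher, at 10.2 and 15.8 FPKM (0.63), and so was *Nck1*, an adaptor that binds PERK and PP1, at 11.2 and 17.5 FPKM (0.64). *Hspa5*, which encodes the chaperone BiP that holds PERK inactive, had 496 and 376 FPKM, a difference of -0.40. *Oma1* and the gene of DELE1 (listed as *0610009O20Rik*), which relay mitochondrial stress to HRI, both had differences of -0.17. The ribosomal stalk genes *Rplp0*, *Rplp1* and *Rplp2*, whose products activate GCN2, had differences between 0.14 and 0.19, and the ribosome-bound kinase *Zak* (now *Map3k20*) had -0.21.

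Downstream of eIF2alpha, 11 of 12 genes (91.7%) of the list of ATF4 and its targets were called higher and 0 lower. Over all genes 12.1% were called higher and 9.29% lower, and the list median was 2.13 beside 0.0086. This list was written with its rise in these libraries already known, so its count is not independent evidence of a direction. *Chac1*, *Trib3*, *Atf3* and *Nupr1* had the largest differences, 3.90, 3.86, 2.98 and 2.87, and *Cebpg*, at 0.36, was the only one not called. *Atf4* had 145 FPKM in KPR- and 446 FPKM in KPRrestored, and *Ddit3*, which encodes CHOP, a known activator of *Ppp1r15a*, had 12.3 and 52.8 FPKM. The difference of *Ppp1r15a*, 1.88, lay within the wide range of these 12 genes, 0.36 to 3.90, and a link between them was not tested.

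Among the 4 genes listed as sensors of ER stress beside PERK, only *Xbp1* was called, higher at 23.0 and 37.2 FPKM (0.69). Over all genes 12.1% were called higher and 9.29% lower, so with 4 genes this count does not set the list apart. *Ern1*, which encodes the kinase and nuclease IRE1 that splices *Xbp1* mRNA, had a difference of 0.32, *Atf6* of -0.057 and *Atf6b* of -0.41. FPKM per gene does not separate spliced from unspliced *Xbp1*. Of the 6 other initiation factors next to eIF2, 0 were called in either direction, which does not set them apart from the shares over all genes. Their differences ran from -0.22 for *Eif2a* to 0.25 for *Denr*, with *Eif5*, which makes eIF2 hydrolyze its GTP, at -0.16.

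**Figure D4:**
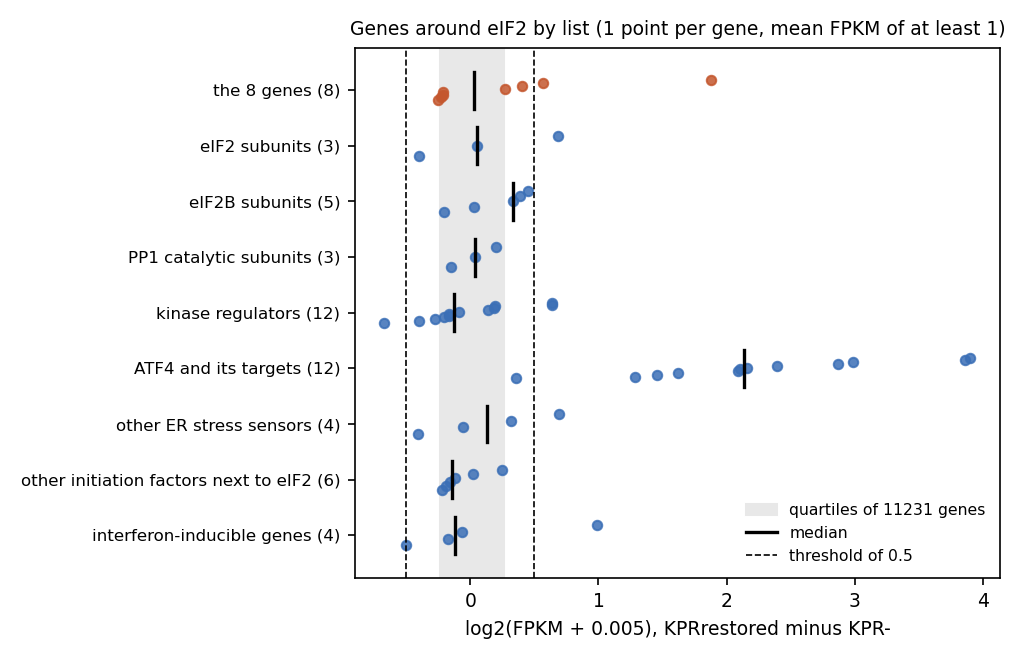
Each point is the log2 difference of 1 gene (KPRrestored minus KPR-) in the 8 genes and in 8 lists around eIF2, with list medians as black ticks and the quartiles of all 11231 genes in grey. The list of ATF4 and its targets has its median at 2.13, whereas the medians of the other 7 lists lie between -0.14 and 0.33.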

How the data were processed

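mRNA was measured in 2 libraries, 1 per group, grouped by the sample descriptions. The authors selected poly(A) RNA, made directional libraries, sequenced paired ends, removed adapters and reads of low quality, mapped the reads using TopHat (mm10, per the submitters' processing notes) and deposited FPKM values estimated using Cufflinks. Versions and the annotation are not given in the sources used here. mm10 is GRCm38, so GENCODE M21 lengths and GRCm38.p6 positions were used, with 22148 symbols matched directly and 672 by a synonym.

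Log2 differences of the deposited FPKM values were computed with a pseudocount of 0.005, and the filter kept mean values of 1 FPKM or more. Any pseudocount shrinks the differences of low genes, but one this small still lets few fragments give large differences. *Eif2s3y*, below the filter, had -2.78 from about 1 fragment in KPR- and 0 in KPRrestored. Depth and a mean fragment length of 210 bases were fitted to low values of genes with a single transcript length. Of these, 78.6% in KPR- and 80.3% in KPRrestored came within 0.1 of a whole fragment. Fragments per gene use the longest transcript with a RefSeq counterpart. Depth and intervals were tested on simulated data made with the same transcript lengths, which cannot check the choice of length. The genes, lists and motifs were chosen with earlier results of these data known. Genes named were all 8, up to 4 called genes per list, and for called members the 3 nearest genes by Euclidean distance over both log2 values. The remaining names were picked with their values in view. Alternatives were other pseudocounts, scalings, filters, thresholds and transcript lengths. The tools were scipy 1.17.1, pandas 2.3.3 and numpy 2.4.6 under Python 3.11.15. Some genes of the interferon-inducible list are not reported here.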

Additional observations from a re-analysis of the deposited data

How the results depend on the processing

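No paired analysis was possible because each group has 1 library. For each of the 8 genes, the 5 other pseudocounts and scalings left the direction and the side of the threshold as they were: *Ppp1r15a* ran from 1.76 to 1.87, *Impact* from 0.53 to 0.56 and *Eif2ak3* from 0.37 to 0.40. The median of the 8 genes lay near 0 and became -0.0063 with FPKM scaled to the same upper quartile. The change of the *Ppp1r15a* to *Ppp1r15b* ratio was 1.49 with a pseudocount of 1. With a threshold of 1, 1 of the 8 genes was called higher, and the counts of eIF2 subunits called higher, of kinase regulators and interferon-inducible genes called higher or lower, and of ER stress sensors called higher were all 0. The 1 interferon-inducible gene called lower was lost (0) with a pseudocount of 0.1 or 1 and with a mean FPKM of at least 5. With no filter, 5 interferon-inducible genes were called higher and 2 lower, and 1 eIF2 subunit lower, from few fragments each. With the shortest coding transcript no interval of the 8 genes changed its side of 0. Depth limits the genes below a mean of 1 FPKM, and the absence of replicates limits every difference.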

Other observations

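The genes nearest to *Ppp1r15a* over both libraries, by Euclidean distance on log2(FPKM + 0.005), were *Ypel3* at 8.15 and 29.6 FPKM, *Tsc22d3*, a glucocorticoid-induced gene, at 8.85 and 28.2 FPKM, and *Jdp2*, which encodes a partner of AP-1 and ATF factors, at 6.69 and 29.4 FPKM. Those nearest to *Impact* were *Zmat5*, *Kdm5b* and *Prune*, with log2 differences between 0.51 and 0.58. With 2 libraries such likeness rests on 2 values per gene.

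The *Ppp1r15* subunits together had 0.934 times the summed FPKM of the 4 kinases in KPR- and 1.62 times in KPRrestored. This ratio was chosen after the values were seen.

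Among the 8594 genes with a RefSeq promoter window and a mean FPKM of at least 1, 11.8% were called higher and 8.96% lower, with a median of 0.0092. Of the 327 with a CRE in a window, as in *Ppp1r15a*, 16.2% were called higher and 4.59% lower, with a median of 0.093. Of the 697 with the interferon element GAAANNGAA, as in *Ppp1r15a* and *Eif2ak2*, 12.9% were called higher and 9.18% lower, with a median of 0.035. Of the 219 with the C/EBP-ATF element TGATGNAA, which none of the member windows held, 25.6% were called higher and 7.76% lower, with a median of 0.11. Of the 1249 with TGTGGT, 13.8% were called higher and 8.97% lower, and of the 952 with TGCGGT, 10.8% were called higher and 8.72% lower. These shares are a description and were not tested.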
